A study of Rattus norvegicus with 6 samples.

Results

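The genes described here encode the plasma proteins of the complement and coagulation cascades, together with the inhibitors and fibrinolytic proteins that restrain or undo them. They comprise 36 rat genes, 20 of complement and 16 of coagulation, listed by name, and a probe was assigned to a gene when its accession matched that gene in the RefSeq gene table. Probes were found for 31 of the 36, with 54 probes in all. The remaining genes, C5, C8g, F5, F11 and F13b, had no named probe and were not analysed here. All 54 probes were bright enough to be tested, and the 31 genes stand among 10257 named genes tested on the array.

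Liver RNA came from 6 male Sprague-Dawley rats, bought at 5 weeks of age and hybridised at 1 rat per single-colour array. The vehicle group of 3 rats received corn oil, and the other 3 received 1000 mg/kg/day of o-anthranilic acid. o-Anthranilic acid, or 2-aminobenzoic acid, is a breakdown product of tryptophan. One label gives 9 weeks of dosing and another gives measurement at 28 days, so the duration is not settled. No genetic modification is stated for either group, and no age at sampling is given.

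Complement is a chain of proteases that marks particles for removal and can pierce membranes. It is started by antibody through C1, by sugars through mannose-binding lectins, or by its own slow turnover, and all routes meet at C3. Coagulation is a second protease chain that ends with thrombin cutting fibrinogen, and plasmin dissolves the clot. Hepatocytes secrete most of these proteins into blood, and many of the genes depend on liver-enriched transcription factors such as HNF1 and C/EBP. Transcript levels in liver do not measure the activity of the circulating proteins.

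Promoter sequences from RefSeq (assembly GRCr8) were available for 28 of the 36 genes, taken as the 250 bases before the annotated start. Letters were searched on both strands. The HNF1 half-site GTTAAT was present in 8 of the 28 (28.6%), namely Plg, C5, F2, C8a, C4bpa, C4bpb, F13b and Proc, against 6.45% of 33469 promoters of the same length. The C/EBP pattern TTGCNNAA was present in 9 of 28 (32.1%) against 9.22%. CCAAT was present in 8 of 28 against 34.0%. TATAAA was found in 0 of 28 and in 12.9% of all promoters, and the HNF4 core CAAAGTCCA in 0 of 28 and in 0.338%. TTCCNGGAA, a STAT site, occurred in Pros1 alone among the 28 and in 1.07% of all. In the printed promoters no matches of different patterns overlap. A match is a description of letters and does not show binding.

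A few promoters with the HNF1 half-site are printed to show it, in capitals, in the adjacent genes for both chains of C4b-binding protein and in the prothrombin gene. All are on the minus strand of GRCr8, at chr13:44663472-44663721 for C4bpa, chr13:44683782-44684031 for C4bpb and chr3:98065247-98065496 for F2, and read 5′ to 3′ towards the start.
C4bpa: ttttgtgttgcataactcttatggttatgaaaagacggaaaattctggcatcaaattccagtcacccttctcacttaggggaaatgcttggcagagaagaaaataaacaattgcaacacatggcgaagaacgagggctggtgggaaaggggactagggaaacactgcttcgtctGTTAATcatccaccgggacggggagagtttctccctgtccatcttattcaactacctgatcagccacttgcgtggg
C4bpb: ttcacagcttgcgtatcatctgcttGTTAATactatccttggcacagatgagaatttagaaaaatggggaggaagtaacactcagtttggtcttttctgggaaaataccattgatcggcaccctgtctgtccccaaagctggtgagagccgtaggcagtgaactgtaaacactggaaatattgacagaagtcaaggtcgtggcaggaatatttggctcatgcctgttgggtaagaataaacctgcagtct
F2: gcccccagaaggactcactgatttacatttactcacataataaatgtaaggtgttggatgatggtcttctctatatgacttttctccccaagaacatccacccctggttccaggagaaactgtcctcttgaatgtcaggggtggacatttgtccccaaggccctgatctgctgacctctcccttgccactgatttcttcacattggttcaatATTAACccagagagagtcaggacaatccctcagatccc

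The half-site begins 76 bases before the start in C4bpa, 225 in C4bpb and 38 in F2, where it reads on the opposite strand. The 6 genes with this half-site that were measured differed between treated and control livers by -0.039 to 0.17 on the log2 scale, and none passed the test.

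The promoters of the kininogen genes Kng1 and Kng2 are shown because the brightest probes of both genes gave nearly the same pattern over the 6 rats. That pattern is described under the contact system below. Kng1 lies at chr11:91340149-91340398 on the minus strand and Kng2 at chr11:91418220-91418469 on the plus strand (GRCr8). Capitals mark their longest shared run of identical bases.
Kng1: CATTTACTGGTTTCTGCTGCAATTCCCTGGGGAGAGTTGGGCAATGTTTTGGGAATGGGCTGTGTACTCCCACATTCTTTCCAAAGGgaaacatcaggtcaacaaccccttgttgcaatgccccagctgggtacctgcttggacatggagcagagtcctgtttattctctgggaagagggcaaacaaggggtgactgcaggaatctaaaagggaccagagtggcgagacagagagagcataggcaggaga
Kng2: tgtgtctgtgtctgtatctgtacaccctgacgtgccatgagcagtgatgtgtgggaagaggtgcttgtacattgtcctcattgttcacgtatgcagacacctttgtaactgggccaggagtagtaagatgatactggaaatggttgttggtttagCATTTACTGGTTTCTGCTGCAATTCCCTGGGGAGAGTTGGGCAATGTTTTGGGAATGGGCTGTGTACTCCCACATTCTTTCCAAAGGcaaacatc

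The shared run is 87 bases long within these windows. It begins 250 bases before the annotated start of Kng1, where the window ends, and 95 bases before that of Kng2, and it holds a C/EBP pattern in each.

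Signals are given as multiples of the array's 75th percentile over non-control probes, which lay between 489 and 523 intensity units. The share of probes bright enough to be called well above background ran from 53.3% to 58.0% per array, and no spot was saturated. Each difference is a log2 value, treated minus control, followed by its standard error (SE) from a limma fit over all 33428 tested probes, and adjusted p-values are Benjamini-Hochberg values over all of them, with a threshold of 0.05. Where a gene had several probes, the brightest represents it. The number of arrays, 3 per group, limits the precision. Among hepatocyte markers, 8 of 8 were measured and well above background on all 6 arrays, among them Alb and Ttr. Of the T cell genes, Cd3d, Cd3g, Cd8a and Cd4 were well above background on all 6 arrays and Cd3e on 0. Of the platelet genes, Pf4, Gp9 and Gp1bb were well above background on all 6 arrays and Ppbp on 0.

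In corn oil livers the 31 genes were abundant transcripts by this measure. Each was well above background on all 6 arrays, and each had a mean above the 75th percentile, as did 58.9% of all named genes tested. A mean above 10 times that percentile was seen for 29 of the 31 and for 20.6% of all genes, and 15 of the 31 exceeded 100 times. The lowest mean was 2.88 ± 0.57 (SD, n = 3) for F7 and the highest 745 ± 74.8 (SD, n = 3) for C3. Brightness depends on the probe as well as on the transcript, so these levels do not rank the genes. The highest single signal of these genes was 416234 units, against a saturation value of 778908.

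No gene of either cascade passed the test between treated and control livers. Among all genes 0% passed (0 of 10257), and among all probes 0.0329% (11 of 33428). At an unadjusted p under 0.05 there were 0 of the 31 genes in this limma fit, where 11.6% of all genes had such a value. That count was 1 or 2 in 9 of 17 alternative settings, and Kng1 was among them in 8. The signals of both groups were apart without overlap for 1 of the 31, F12, against 19.8% of all genes. The median difference was 0.065 over the 31 genes and 0.0085 over all genes, and the lowest adjusted p of the 31 was 0.409.

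**Figure D1:**
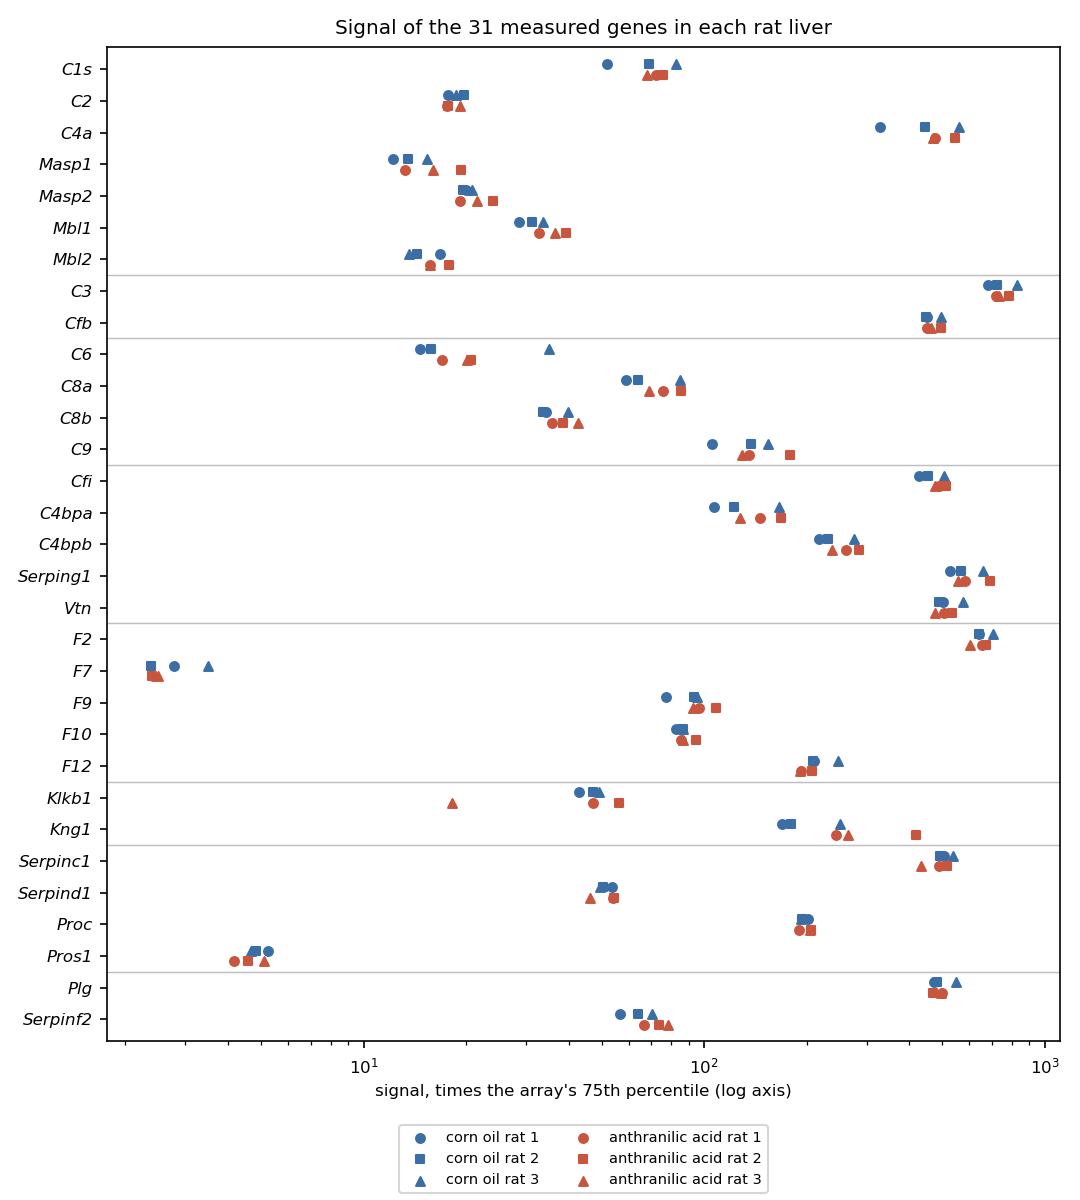
Signal of each of the 31 measured genes in each rat liver, as multiples of the array's 75th percentile on a log axis. Blue symbols are the 3 corn oil rats and red symbols the 3 anthranilic acid rats, with a marker shape per rat and lines between cascade roles; the groups overlap in every gene except F12.

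The intervals show how large a difference could be present. The 95% interval of the difference lay within a 1.5-fold change in either direction for 23 of the 31 genes, against 68.9% of all genes. It lay within a 2-fold change for 29 of 31, against 89.1% of all genes, the exceptions being Klkb1 and Kng1. The genes outside the 1.5-fold limit were C4a, Masp1, C6, C9, C4bpa, F7, Klkb1 and Kng1. The median SE of the 31 genes was 0.11 and that of all genes 0.12.

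**Figure D2:**
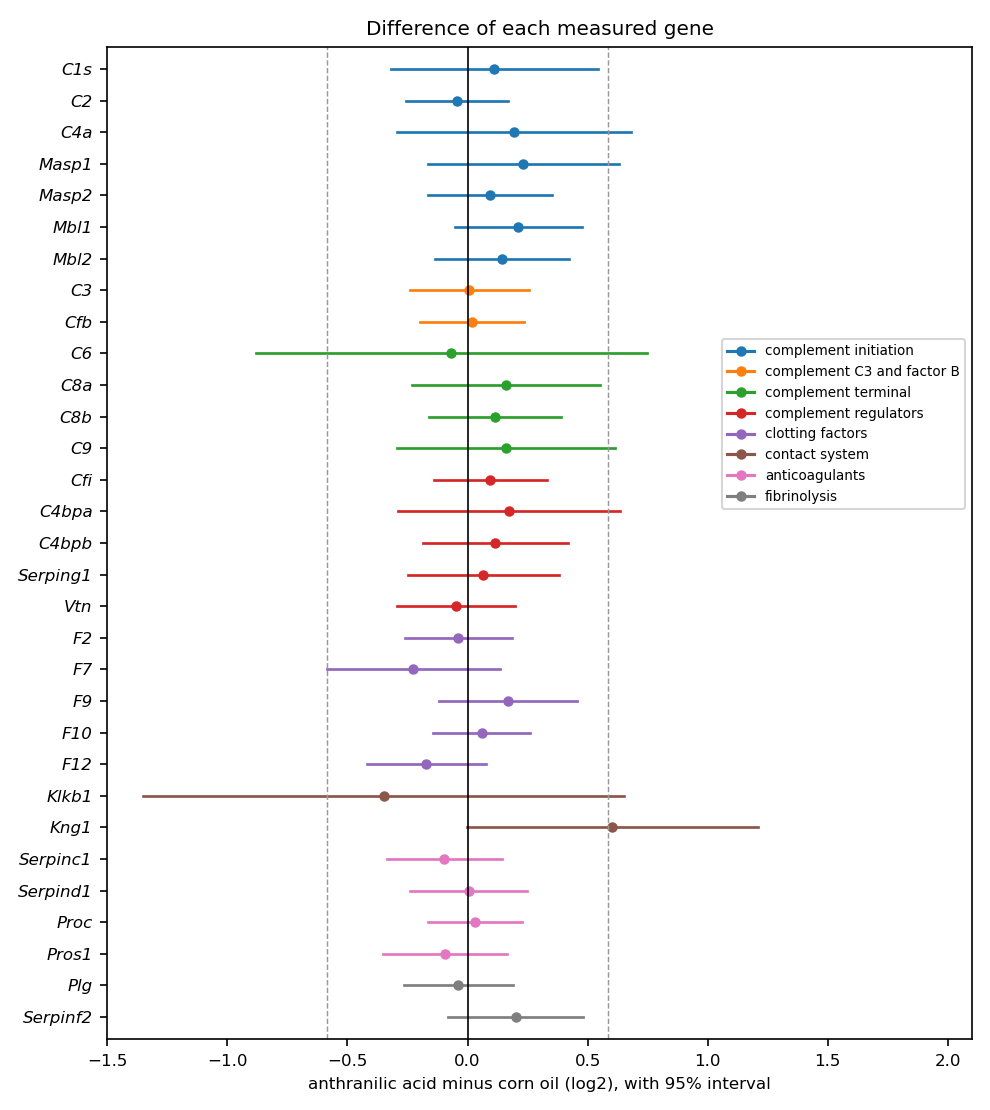
Log2 difference of each measured gene, treated minus control, with its 95% interval from the limma fit, coloured by cascade role. Dashed lines mark a 1.5-fold change in either direction, and every interval includes 0.

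Of the 31 genes 21 were above 0 and 10 below, where 52% and 48% of all genes were. Centring arrays on the median adds the same amount to every gene, and 25 of the 31 were then above 0, beside 62.8% of all genes. Complement as a whole had 15 of 18 measured genes above 0 and 3 below, with a median of 0.11. Without corn oil replicate 1, 10 of 18 were above 0 with a median of 0.020, and 16 of the 31 genes in all. Without anthranilic acid replicate 2, complement had 12 of 18 above 0 with a median of 0.058, and 17 of the 31 were above 0 in all. Without corn oil replicate 3, complement had 17 of 18 above 0. Coagulation and fibrinolysis had 6 of 13 above 0 and 7 below, with a median of -0.038. The difference between both medians was not tested.

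The genes that start the classical and lectin pathways had a median of 0.14, with 6 of 7 above 0 and 0 past the test. C4a encodes complement component C4, whose cleaved form builds the C3 convertase. Its signal was 327, 446 and 560 in corn oil rats 1, 2 and 3, and 475, 546 and 470 in the treated rats. The treated rats lay inside the range of the controls, which spread more, and the difference was 0.19 (SE 0.20, limma adjusted p = 0.714). The second C4a probe gave 0.34 (SE 0.21). The difference was -0.011 without corn oil replicate 1 and 0.38 without corn oil replicate 3. A near-identical gene, C4b, has no named probe here, so the C4a signal may include it.

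C1s encodes the protease that cleaves C4 and C2. It had signals of 51.7, 68.8 and 83.0 in the controls and 72.4, 75.7 and 67.8 in the treated rats. Again the treated values lay within the control range, and the difference was 0.11 (SE 0.18). C2, the other convertase subunit of this pathway, stood at -0.043 (SE 0.088), with controls of 17.7 to 19.7 and treated rats of 17.6 to 19.1.

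Mbl1 and Mbl2 encode mannose-binding lectins, which recognise sugars on microbes. Mbl1 had signals of 28.6, 31.3 and 33.6 in the controls and 32.7, 39.2 and 36.5 in the treated rats. Treated rats 2 and 3 lay above every control and treated rat 1 did not, so the groups overlapped (difference 0.21, SE 0.11, limma adjusted p = 0.470). Mbl2 had 16.8, 14.4 and 13.6 in the controls and 15.7, 17.9 and 15.7 in the treated rats, a difference of 0.14 (SE 0.12). For Mbl1 corn oil rat 1 was the lowest control and for Mbl2 the highest.

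Masp1 and Masp2 encode the proteases that travel with these lectins. Masp1 had signals of 12.2, 13.5 and 15.3 in the controls and 13.3, 19.4 and 16.0 in the treated rats, a difference of 0.23 (SE 0.16) at its brightest probe. Its 3 dimmer probes gave 0.13, -0.11 and -0.091. The brightest and the third probe differed in their shift by 0.34 (SE 0.060, limma adjusted p = 0.290 over 9801 probe pairs), which did not pass. Masp2 stood at 0.094 (SE 0.11), and its other probes at -0.088 and -0.081.

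C3, on which all routes converge, and factor B (Cfb), the protease subunit of the alternative pathway convertase, had differences close to 0. C3 had signals of 683, 723 and 828 in the controls and 721, 784 and 735 in the treated rats. Cfb had 452, 447 and 496 in the controls and 450, 497 and 464 in the treated rats. Differences were 0.0077 (SE 0.10, 95% interval -0.24 to 0.26) for C3 and 0.017 (SE 0.089, interval -0.20 to 0.23) for Cfb.

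The terminal genes encode the membrane attack complex. Of 4 measured, 3 were above 0, with a median of 0.14. C9, which forms the pore, had signals of 106, 137 and 154 in the controls and 136, 178 and 129 in the treated rats, a difference of 0.16 (SE 0.19). C8a and C8b encode chains of C8 and stood at 0.16 (SE 0.16) and 0.11 (SE 0.11). The groups overlapped in each of the 3 genes. Leaving out corn oil replicate 1 lowered C9 to 0.0060 and C8a to 0.052, and leaving out corn oil replicate 3 raised them to 0.28 and 0.31. C8b was 0.047 without anthranilic acid replicate 3 and 0.19 without corn oil replicate 3.

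C6 was set by a single control animal. Its signals were 14.7, 15.8 and 35.0 in the controls and 17.0, 20.6 and 20.1 in the treated rats. Corn oil rat 3 was above every other rat, and the other 2 controls were below every treated rat. The difference was -0.068 (SE 0.34, limma adjusted p = 0.949) with all rats and 0.33 (SE 0.13, limma adjusted p = 0.401) without corn oil replicate 3. The gene had 1 probe.

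Among the regulators, 4 of 5 were above 0, with a median of 0.095. C4bpa and C4bpb encode the chains of C4b-binding protein, a cofactor for breaking down C4b. C4bpa had signals of 106.6, 122 and 166 in the controls and 146, 168 and 127 in the treated rats, a difference of 0.17 (SE 0.19). C4bpb had 218, 231 and 275 in the controls and 260, 285 and 237 in the treated rats, a difference of 0.12 (SE 0.12). Both chains had the same order of animals within each group. Without corn oil replicate 1 they stood at 0.035 and 0.047, and without corn oil replicate 3 at 0.35 and 0.21.

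Cfi encodes factor I, the protease that inactivates C3b and C4b, and stood at 0.095 (SE 0.097), with controls of 426 to 507 and treated rats of 478 to 513. Serping1 encodes the C1 inhibitor, which also blocks the contact system, and stood at 0.065 (SE 0.13). Its 2 dimmer probes gave 0.033 and 0.073. Vtn encodes vitronectin, an inhibitor of membrane attack, and stood at -0.048 (SE 0.10). None passed the test, and the groups overlapped in each.

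The clotting factors had 2 of 5 measured genes above 0, with a median of -0.038. Prothrombin (F2), the precursor of thrombin, had signals of 639, 639 and 706 in the controls and 656, 674 and 602 in the treated rats. The difference was -0.038 (SE 0.092, 95% interval -0.26 to 0.18). F10 encodes factor X, which activates prothrombin, and stood at 0.059 (SE 0.083), and F9, factor IX, at 0.17 (SE 0.12), with its dimmer probe at -0.044.

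F7 encodes factor VII, the partner of tissue factor that starts clotting. Its signals were 2.78, 2.37 and 3.49 in the controls and 2.41, 2.40 and 2.49 in the treated rats. The treated rats were close to each other and lay inside the control range, a difference of -0.23 (SE 0.15, limma adjusted p = 0.558). Without corn oil replicate 3, the highest control, it was -0.078.

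F12 encodes factor XII, which starts the contact pathway. Its signals were 210, 209 and 247 in the controls and 193, 207 and 191 in the treated rats. Every treated rat was below every control, with the nearest pair at 207 and 209, and the difference was -0.17 (SE 0.10, 95% interval -0.42 to 0.075, limma adjusted p = 0.520). The dimmer F12 probe gave -0.11 (SE 0.12). Without corn oil replicate 3 the difference was -0.091. A separation in the lower direction was seen in 9.13% of all genes.

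Kng1 and Klkb1 encode the other contact proteins. Kng1 encodes kininogen, from which bradykinin is released, and it had the lowest p of the 31 genes. Its signals were 169, 180 and 251 in the controls and 243, 418 and 264 in the treated rats. Treated rat 2 was far above the rest and treated rat 1 was below corn oil rat 3, so the groups overlapped. The difference was 0.60 (SE 0.25, 1.52-fold, unadjusted p = 0.0509 and adjusted p = 0.409 by limma), and it did not pass.

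The second Kng1 probe had signals of 66.2, 75.5 and 108 in the controls and 102, 161 and 112 in the treated rats. Its difference was 0.59 (SE 0.24, unadjusted p = 0.0483 and adjusted p = 0.405 by limma). This probe was under an unadjusted 0.05, but the gene was counted by its brighter probe. Kng2, a neighbouring kininogen gene that is not among the 36, had signals of 181, 189 and 265 in the controls and 256, 445 and 275 in the treated rats, a difference of 0.60 (SE 0.25, limma adjusted p = 0.415). These 3 probes put the same rats in the same order within each group. Kng2 had 2 tested probes, of which only the brightest is shown, so the shared order does not cover the other. The rat kininogen genes are closely similar, so the signal may not be specific to 1 of them. Without anthranilic acid replicate 2 the Kng1 difference was 0.36 (limma adjusted p = 0.546), and with slide as a block it was 0.69 (limma adjusted p = 0.483). A difference over 0.5 in size was found for 1 of the 31 genes, Kng1, against 7.65% of all genes.

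Klkb1 encodes plasma prekallikrein, the protease that cuts kininogen. Its signals were 42.8, 47.3 and 49.3 in the controls and 47.1, 56.4 and 18.2 in the treated rats. Treated rat 3 was below every other rat, and treated rat 1 lay inside the control range and treated rat 2 above it. The difference was -0.35 (SE 0.41, limma adjusted p = 0.75) with all rats and 0.15 (SE 0.13, limma adjusted p = 0.672) without anthranilic acid replicate 3. That array alone lay on the second slide, so the value without it is also the value within the first slide, and its share in the low signal was not tested. The gene had 1 probe.

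**Figure D3:**
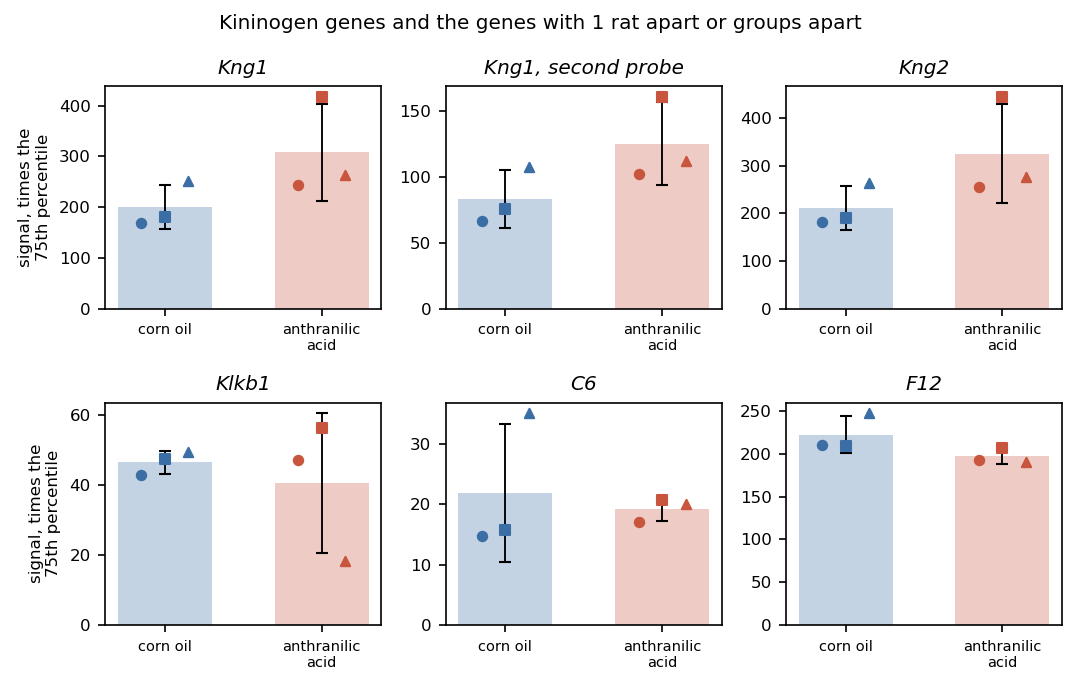
Signal of Kng1 at both probes, Kng2, Klkb1, C6 and F12 as multiples of the array's 75th percentile. Bars are group means, error bars are the SD over 3 rats and symbols are single rats; treated rat 2 is high in all 3 kininogen panels, treated rat 3 is low for Klkb1 and corn oil rat 3 is high for C6.

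The anticoagulants had 2 of 4 genes above 0, with a median of -0.044. Antithrombin (Serpinc1) is the main inhibitor of thrombin, and its signals were 507, 492 and 536 in the controls and 488, 517 and 433 in the treated rats (difference -0.097, SE 0.099). Heparin cofactor II (Serpind1) stood at 0.0056 (SE 0.10). Protein C (Proc), which inactivates factors V and VIII, had signals of 202, 194 and 193 in the controls and 191, 206 and 205 in the treated rats. The difference was 0.030 (SE 0.081), and the dimmer Proc probe gave -0.031. The cofactor of protein C, protein S (Pros1), stood at -0.094 (SE 0.11), with its dimmer probe at 0.061.

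For fibrinolysis, plasminogen (Plg) had signals of 475, 484 and 550 in the controls and 498, 470 and 497 in the treated rats. The difference was -0.039 (SE 0.093), and the dimmer Plg probe gave 0.017. Serpinf2 encodes alpha-2-antiplasmin, the inhibitor of plasmin. It had signals of 56.5, 63.9 and 70.1 in the controls and 66.7, 73.6 and 78.5 in the treated rats. Treated rats 2 and 3 were above every control and treated rat 1 was not, and the difference was 0.20 (SE 0.12, limma adjusted p = 0.509).

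Most of the 31 genes varied together between animals inside each group. Corn oil rat 3 had the highest signal of the controls in 26 of the 31 genes, against 37.3% of all genes, and corn oil rat 1 the lowest in 19, against 34.4%. The reverse held for 4 genes, Mbl2, Serpind1, Proc and Pros1, with corn oil rat 1 highest and corn oil rat 3 lowest. The median deviation of the anticoagulants was 0.057 in corn oil rat 1 and -0.038 in corn oil rat 3. Among treated rats, rat 2 was the highest in 25 of the 31 genes, against 32.1% of all genes. For complement alone, corn oil rat 3 and treated rat 2 were each the highest of their group in 16 of 18 genes. The median deviation from the corn oil mean was -0.11, -0.038 and 0.14 in corn oil rats 1, 2 and 3. It was 0.0058, 0.15 and 0.011 in treated rats 1, 2 and 3. Over all genes the same medians lay between -0.0025 and 0.019.

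The spread of these per-animal medians within a group, a pooled SD of 0.11, was larger than the median difference between groups. Leaving out corn oil replicate 1 brought the median difference of the 31 genes to 0.0060, leaving out anthranilic acid replicate 2 brought it to 0.013, and leaving out corn oil replicate 3 brought it to 0.12. The median SD between controls was 0.14 for the 31 genes and 0.13 for all genes, and between treated rats 0.12 and 0.14. These shared shifts were not tested against a cause.

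**Figure D4:**
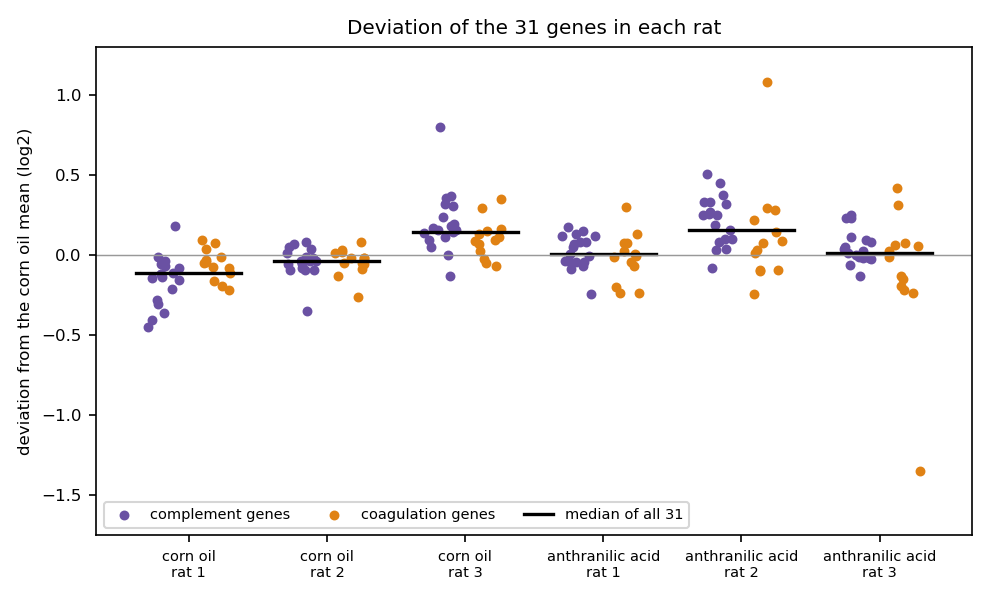
Deviation of each of the 31 genes from its corn oil mean in each rat, on the log2 scale, with complement in purple, coagulation in orange and the median as a black line. Corn oil rat 3 and anthranilic acid rat 2 have the highest medians, 0.14 and 0.15, and corn oil rat 1 the lowest, -0.11.

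Marker genes of hepatocytes and of other liver and blood cells were read on the same arrays. The summed signal of the 8 hepatocyte markers was 5635 to 5816 in the controls and 5253 to 5396 in the treated rats, with 8 of 8 below 0 and a median of -0.10. Macrophage markers summed to 175 to 214 in the controls and 158 to 200 in the treated rats, with 9 of 10 below 0. The other one, Lyz2, stood at 0.53 (SE 0.099, limma adjusted p = 0.188), and every treated rat was above every control. Lymphocyte markers summed to 1.83 to 2.01 in the controls and 2.73 to 2.87 in the treated rats, with 5 of 6 above 0. Erythroid markers summed to 470 to 818 in the controls and 687 to 934 in the treated rats, with 4 of 4 above 0. Median differences were -0.018 for 5 endothelial, -0.025 for 8 stellate, 0.56 for 2 neutrophil and -0.053 for 3 platelet markers. None of these genes passed the test. Their part in the values above was not tested, and in whole liver fewer cells of a type and less RNA per cell cannot be told apart.

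Probes of the same gene were compared for 18 genes with more than 1 tested probe. All probes had the same sign for 12 of the 18. Of 29 probe pairs, 0 passed over all 9801 pairs by limma, where 0.0306% of all pairs did. At an unadjusted p under 0.05 there were 3 of the 29 (10.3%), all of Masp1, against 7.48% of all pairs.

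The wider pathway was represented by 65 further genes, of which 55 were measured, and 0 of 55 passed the test by limma. Of these, 3 higher and 4 lower had an unadjusted p under 0.05, where 5.47% and 6.15% of all genes did. Other complement components were below 0 in 9 of 9 measured genes, with a median of -0.19, and 0 had an unadjusted p under 0.05. Among them C1qa, C1qb and C1qc were also counted with the macrophage markers above. Colec10, a collectin, stood at -0.35 (SE 0.18) and C1qa, a chain of C1q made by macrophages, at -0.19 (SE 0.12). Complement regulators outside the 36 were below 0 in 6 of 6 genes well above background on all 6 arrays, with a median of -0.17. Cd59b, an inhibitor of membrane attack, stood at -0.31 (SE 0.16). Cd46, a membrane cofactor for factor I, was well above background on 3 of 3 control arrays and 1 of 3 treated arrays. It entered the test through the controls, where it was brighter, so no fold is given, and it is 1 of the 4 lower genes counted above.

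Complement receptors were below 0 in 3 of 5, with C5ar2 at -0.67 (SE 0.27) and C3ar1 at -0.65 (SE 0.33). Without corn oil replicate 1 they stood at -0.42 and -0.36. Both were dim, though well above background on all 6 arrays. C5ar2 signals were 0.287 to 0.539 in the controls and 0.184 to 0.276 in the treated rats. C3ar1 signals were 0.114 to 0.224 in the controls and 0.0738 to 0.139 in the treated rats. Each gene had 2 tested probes, and only the brightest is given. Among other coagulation factors, 3 of 6 were above 0, with Kng2 described above and Fgb, the fibrinogen beta chain, at -0.084 (SE 0.077). Other coagulation inhibitors were above 0 in 3 of 6. Tfpi, the inhibitor of tissue factor, stood at 0.30 (SE 0.085), and Procr, the endothelial receptor of protein C, at -0.60 (SE 0.19). Tfpi was higher in every treated rat than in every control, and Procr lower, and neither passed (limma adjusted p = 0.307 and 0.336).

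Other fibrinolysis genes were above 0 in 2 of 6, with Plau, the urokinase gene, at -0.30 (SE 0.14). Plau was dim, at 0.159 to 0.199 in the controls and 0.128 to 0.163 in the treated rats. Serpine2, a serpin that inhibits plasminogen activators, stood at -0.21 (SE 0.14). Vitamin K is needed to finish prothrombin and factors VII, IX and X, and 2 of 4 genes listed for its cycle were above 0. Vkorc1, the epoxide reductase, stood at 0.051 (SE 0.11), Ggcx at -0.055 (SE 0.18) and Vkorc1l1 at -0.035 (SE 0.15). The quinone reductase Nqo1, also placed on this list, stood at 1.59 (SE 0.47, limma adjusted p = 0.319). Whether its difference bears on the vitamin K cycle was not tested. Nqo1 signals were 2.38, 2.102 and 0.673 in the controls and 4.09, 4.57 and 4.90 in the treated rats. Corn oil rat 3 was far below the other controls, and without corn oil replicate 3 the difference was 1.01 (SE 0.13, limma adjusted p = 0.131). Of 12 regulators of liver secretory genes, 6 were above 0. Il6r, the interleukin-6 receptor that drives the acute phase response, stood at -0.31 (SE 0.12), and the forkhead factor Foxa2 at 0.63 (SE 0.26). Neither passed the test (limma adjusted p = 0.401 and 0.410). With single arrays left out, the differences closest to 0 were -0.17 for Colec10, -0.18 for Plau, -0.11 for Serpine2 and C1qa and -0.20 for Cd59b.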

How the data were processed

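Per the file headers, the deposited spot intensities came from Agilent Feature Extraction 10.7.1.1 (10.7 per the submitters' processing notes), which subtracted background and removed spatial trends. The grid build is rn4. The authors' deposited table holds, per probe and array, a ratio of that signal to a single value per array close to the 75th percentile, whose derivation is not stated, and served as an alternative.

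Processed intensities were log2-transformed and centred on the 75th percentile of each array (61657 non-control probes). Outlier spots were left out, of which 0 concerned these genes. A probe was tested if well above background on all 3 arrays of a group, with at least 2 unflagged spots in each. The two-sided test used lmFit and eBayes of limma 3.58.1 under R 4.3.3, with Benjamini-Hochberg adjustment. The procedure was tested on simulated data with independent noise. Those data held no shared shifts by animal or slide, so that test does not cover such shifts. Names came from RefSeq GRCr8, which matched 27460 probes.

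The members and gene lists were chosen with earlier results of these data known. All 36 members are accounted for. Of each further list the 2 genes with the smallest p are named, and Ggcx and Vkorc1l1 besides. They are given by their brightest probe, and their other probes are not shown. Replicates are different rats per the labels. Slide 1 carried the 3 controls and treated replicates 1 and 2, in separate rows by group, so row and group cannot be told apart there, and treated replicate 3 lay on slide 2. Alternatives covered background, scaling, dim-probe filters, the deposited table, slide and replicate blocks, variance models, probe choice and each array left out.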

Additional observations from a re-analysis of the deposited data

How the results depend on the processing

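Of the 31 genes, 0 passed the limma test under each of 17 alternatives, and the lowest adjusted p was 0.335, for Kng1 with array weights. The median difference of the 31 genes ranged from 0.0060 without corn oil replicate 1, where that of all genes was 0.0067, to 0.12 without corn oil replicate 3, where it was 0.011. Centred on the median it was also 0.12, beside 0.060 for all genes. Leaving out arrays for the named pathway genes and the counts of complement genes above 0, and the restriction of pathway counts to genes above background everywhere, were chosen after seeing the data. Single differences changed sign in 41 of 527 gene and alternative combinations, and 16 of the 31 genes kept their sign throughout. Klkb1 was at 0.15 with slide as a block. Same-numbered samples did not deviate together (r = 0.072, -0.051 and -0.043), so the numbers were not taken as pairs. With a replicate block, 0 of the 31 genes, 0 genes, 2 probes and 1 probe pair passed.

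Counts over the whole array moved more. Against 11 probes and 0 genes, there were 51 probes and 6 genes with normexp background correction and quantile scaling, 21 and 2 centred on the median, and 45 and 4 with a trended robust variance. Array weights gave 18 probes and 1 gene, and slide as a block 6 and 1. There were 2 probes without the filter on dim probes and 2 among those above background on all 6 arrays. Leaving out 1 array gave 4 to 21 probes, 0 to 6 genes and 1 to 14 probe pairs. Against 3 probe pairs there were 10 with slide as a block, 1 without the filter and 0 above background on all 6 arrays. Which genes moved in these counts was not examined, and the cause was not tested. With 3 arrays per group, small differences were not detectable.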
